A study of Mus musculus with 14 samples.

Results

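A set of 10 genes of the sarcomere's regulatory machinery were described here: the myosin light chains Myl1, Myl2, Myl3, Myl4, Mylpf and Myl6b, the light chain kinase Mylk2, and the tropomyosins Tpm1, Tpm2 and Tpm3. They were chosen by gene symbol, and all 10 were found among the 49585 genes of each deposited expression table. RNA was measured in 12 libraries of mouse hind limb skeletal muscle, in 4 groups of 3: uninjured wild type (WT), uninjured Myf6 knockout (KO), injured WT and injured KO. The gene removed, Myf6 (MRF4), encodes one of the myogenic transcription factors and is abundant in adult fibres. The labels do not describe the knockout allele, the strain, age or sex of the mice, the kind of injury or the time after it. The sample descriptions carry a number with the letter L for the uninjured and R for the injured library, and the number is read here as the animal, so that each animal gave 1 uninjured and 1 injured library. WT and KO libraries carry different numbers, and a difference of litter or batch between them cannot be told apart from genotype. A list of binding sites of Flag-tagged Myf6, from 1 ChIP-seq library of primary myotubes and 1 control, was also used.

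In a myosin molecule, each heavy chain head carries an essential and a regulatory light chain, which stiffen the lever arm and tune its motion. Fast fibres of limb muscle use Mylpf as the regulatory and Myl1 as the essential chain, whereas slow fibres use Myl2 and Myl3, the forms that the heart ventricle also makes, and Myl4 is the form of the atrium and of embryonic muscle. Tropomyosin lies along the actin filament, where it moves with the troponin complex to expose or cover the sites that myosin binds, and its fast, shared and slow forms in limb muscle come mainly from Tpm1, Tpm2 and Tpm3.

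The libraries held 1880087 to 49392472 reads assigned to genes, and uninjured WT replicate 2 was the smallest. The 10 genes took 6.46 to 9.51% of the reads of a library. Levels are RPM, the reads of a gene scaled to 1000000 reads in the library, a unit that does not correct for transcript length, so levels were compared between libraries and not between genes. Myf6 itself was at 25.0 to 121 RPM in the WT and at 1.86 to 3.46 RPM in the KO libraries, a difference of -3.90 (SE 0.51) in uninjured and -4.22 (SE 0.33) in injured muscle on the log2(RPM + 1) scale, with adjusted p = 0.0215 and 0.00697 (limma). All 6 markers of the skeletal muscle fibre were above 1 RPM in every library. The mitochondrial share of reads was 3.63 to 23.2%, and injured KO replicate 2 stood apart from the other KO libraries, with the highest share, a Malat1 level of 288 RPM against 73.4 to 106 RPM, and the lowest summed level of the fibre markers, 55900 RPM. These measures also differed by genotype: Malat1, a nuclear RNA, was at 213 to 494 RPM in the 6 WT libraries, above all uninjured KO libraries, and the mitochondrial share was 13.8 to 22.3% in uninjured WT against 3.63 to 15.3% in uninjured KO. Their part in the differences between KO and WT given below was not tested.

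Peaks of Flag-Myf6 lay close to the starts of several of these genes, and the sequences at the 3 nearest ones are printed because each has a summit beside the same 6-letter motif. The list holds 12898 peaks with a median fold enrichment over background of 7.68, a value that is the authors' own for each peak. The peak of Myl2 lay at chr5:122092947-122093193 with a fold enrichment of 14.2, higher than 92.2% of all peaks, and its summit was 122 bases upstream of the second of the gene's 2 annotated starts, inside the gene (chr5:122092724-122113473). The peak of Tpm3 lay at chr3:90072395-90072536 with a fold of 8.22, 165 bases upstream of the first of 2 starts of the gene (chr3:90072651-90100902). The peak of Tpm2 lay at chr4:43523692-43523946 with a fold of 7.42, 245 bases upstream of the start of the gene (chr4:43513726-43523583, minus strand). Myl3 (chr9:110763678-110769802) is shown for contrast, since its nearest summit was 359 kb away. The 250 bases before the start, from RefSeq on GRCm38.p6, are given 5′ to 3′ on the gene's own strand, with each E-box, the motif CANNTG to which myogenic factors bind, in capitals. They run over chr5:122092939-122093188, chr3:90072401-90072650, chr4:43523555-43523804 (minus strand) and chr9:110763428-110763677.
Myl2: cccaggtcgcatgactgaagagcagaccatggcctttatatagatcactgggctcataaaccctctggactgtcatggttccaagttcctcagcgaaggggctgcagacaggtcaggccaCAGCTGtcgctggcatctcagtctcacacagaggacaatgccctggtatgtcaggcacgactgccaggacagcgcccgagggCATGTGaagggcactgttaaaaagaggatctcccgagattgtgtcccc
Tpm3: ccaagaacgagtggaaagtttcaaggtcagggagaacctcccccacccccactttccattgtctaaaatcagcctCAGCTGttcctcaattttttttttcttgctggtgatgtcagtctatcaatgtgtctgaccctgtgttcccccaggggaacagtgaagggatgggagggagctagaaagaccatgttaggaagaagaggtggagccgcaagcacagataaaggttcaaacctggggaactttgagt
Tpm2: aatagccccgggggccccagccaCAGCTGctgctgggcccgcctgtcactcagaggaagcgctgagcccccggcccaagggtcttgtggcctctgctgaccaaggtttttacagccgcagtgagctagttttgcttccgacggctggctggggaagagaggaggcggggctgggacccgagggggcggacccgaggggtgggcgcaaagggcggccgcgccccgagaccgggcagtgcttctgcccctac
Myl3: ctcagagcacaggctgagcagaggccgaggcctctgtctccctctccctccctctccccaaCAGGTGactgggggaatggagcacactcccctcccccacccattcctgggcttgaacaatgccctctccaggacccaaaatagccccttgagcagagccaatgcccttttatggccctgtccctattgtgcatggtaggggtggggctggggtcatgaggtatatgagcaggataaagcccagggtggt
Each of the 3 windows with a summit holds the E-box CAGCTG, whose first base is 130 bases before the start in Myl2, 175 in Tpm3 and 227 in Tpm2. The centre of that box lay 5.5, 7.5 and 20.5 bases from the summit. The Myl3 window holds the E-box CAGGTG, 189 bases before the start, and a CArG box, the motif of serum response factor, and no summit.

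Motifs were counted on both strands in windows of 300 bases, from 250 before to 50 after each of 32851 annotated starts of the genome. Any CANNTG was in 72.3% of all windows and in 97.6% of the 287 windows that held a summit. CAGCTG, which is one form of CANNTG, was in 16.3% of all windows and 68.3% of those with a summit, and CAGGTG in 20.2% and 41.5%. CAGCTG was also in the windows of Myl1, of Mylpf and of the first start of Myl2, none of which held a summit. The Myl4 window held no E-box. A CArG box was in 1.63% of all windows, and that of Myl3 was the only one among the members. A motif match is a description of the letters and not a measured site.

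Over the 9 members with an annotated start in the table, 6 had a summit within 5 kb of it: Myl1, Myl2, Mylpf, Myl6b, Tpm2 and Tpm3. Among the 9488 genes with a start that were tested in uninjured muscle, the share was 11.1%. Within 1 kb, 3 of 9 members and 4.37% of the genes had a summit. With only peaks of at least 10-fold enrichment, 2 of 9 members, Myl2 and Mylpf, and 2.59% of the genes had one within 5 kb. The peak of Mylpf (chr7:127210351-127210605, fold 10.9) lay 1097 bases upstream of the annotated start, inside the span of the gene. Those of Myl6b (fold 5.21) and Myl1 (fold 3.67) were also inside the genes, 1829 and 3995 bases past the start. Myl1 had 4 more peaks within 20 kb of the gene, among them one of fold 9.52, 6199 bases upstream. The nearest summits of Myl4 and Tpm1 were 10515 bases past and 10715 bases before their starts. ChIP-seq came from 1 library of cultured myotubes, without replicates, and no expression was measured in those cells.

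**Figure D1:**
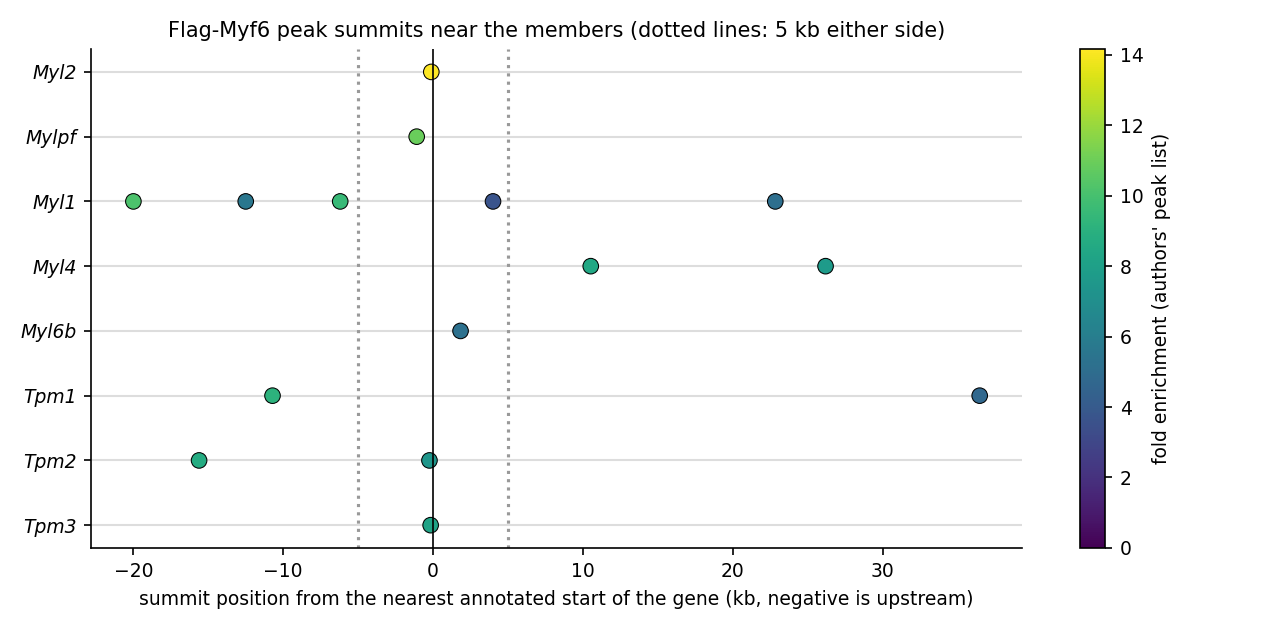
Position of each Flag-Myf6 peak summit within 20 kb of a member's gene, in kb from the nearest annotated start (negative is upstream), 1 row per gene, coloured by the authors' fold enrichment. The summits of Myl2, Tpm3 and Tpm2 sit within 245 bases of a start, and that of Myl2 has the highest fold of all points, 14.2. Myl3, with no peak in that range, and Mylk2, with no start in the table, are not shown.

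Between KO and WT muscle, the slow forms Myl2 and Tpm3 and the atrial form Myl4 had the largest differences among the 10 genes in uninjured muscle, and Tpm3, Myl2 and Myl3 in injured muscle, all higher in KO. The fast light chain Myl1 was lower in every KO than in every WT library of the same state. None of the 10 passed the test, limma on log2(RPM + 1) with p-values adjusted over all genes and a threshold of 0.05, in either state. At an unadjusted p under 0.05, 3 of 10 passed in uninjured and 3 of 10 in injured muscle, in both cases Myl2, Myl4 and Tpm3. DESeq2 on whole reads called 3 and 2 of them at the adjusted threshold, and edgeR called 0 and 0. Over all genes DESeq2 called 5.32% and 3.38%, and edgeR 0.441% and 0.261%. With limma, 0.281% of all genes passed the adjusted and 14.2% the unadjusted threshold in uninjured muscle, and 0.269% and 10.3% in injured muscle. The median difference of the 10 genes was 0.41 in uninjured muscle, against -0.18 over all 12460 genes tested, and 0.24 against 0.01 over 12625 in injured muscle. In uninjured muscle the median over all genes depended on the scaling: it was 0.04 with upper quartile scaling, 0.02 with TMM and -0.32 when reads of mitochondrial genes were left out. Differences there are therefore best read against that median.

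Counted by library, 3 members were higher in every uninjured KO than in every uninjured WT library (Myl4, Tpm1 and Tpm3), against 6.2% of all genes, and 1 was lower throughout (Myl1), against 15.5% of all genes. In injured muscle 4 were higher throughout (Myl2, Myl4, Mylk2 and Tpm3), against 8.29% of all genes, and 2 lower (Myl1 and Mylpf), against 8.63%. With 3 libraries against 3, a single gene cannot go below p = 0.1 in an exact two-sided permutation test. In the authors' deposited table, 2 members (Myl4 and Tpm3) had a q-value under 0.05 in uninjured and 1 (Tpm3) in injured muscle, against 0.668% and 0.454% of all rows.

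**Figure D2:**
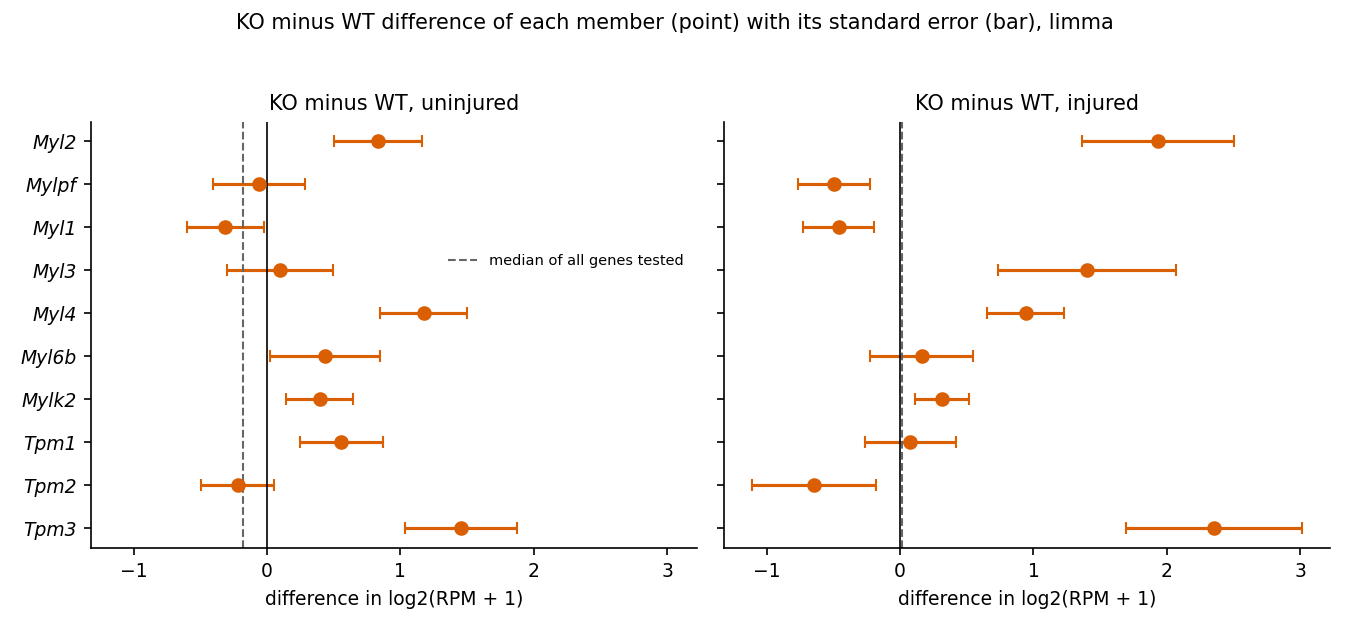
Difference between KO and WT in log2(RPM + 1) for each gene (point) with its standard error (bar), in uninjured (left) and injured (right) muscle, with 3 libraries a group. The dashed line is the median of all genes tested, -0.18 and 0.01. Tpm3 has the largest estimate in both panels, 1.46 and 2.35.

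Myl2 (ENSMUSG00000013936.12) encodes the slow regulatory light chain. Its level was 321, 310.1 and 471 RPM in uninjured WT and 964, 449.8 and 612 RPM in uninjured KO muscle. After injury its level was 235, 85.0 and 359 RPM in WT and 1210.2, 480.1 and 698 RPM in KO. The uninjured groups overlapped, since KO replicate 2 lay below WT replicate 3, and the injured groups did not. The difference was 0.83 (SE 0.33, adjusted p = 0.295, limma) in uninjured and 1.93 (SE 0.57, adjusted p = 0.333, limma) in injured muscle, or a ratio of means of 1.84 and 3.52. DESeq2 on whole reads called both, with adjusted p = 0.0174 and 0.0320, where the adjusted p over all alternatives ran from 0.0174 to 0.750 and from 0.0320 to 0.922. In injured muscle single libraries moved the difference: it was 1.35 (adjusted p = 0.684, limma) without WT replicate 2 and 2.25 (adjusted p = 0.0339, limma) without KO replicate 2, a setting in which 19% of all genes passed.

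Mylpf (chr7:127208848-127214288) encodes the fast regulatory light chain, the counterpart of Myl2. Its level was 24166, 22782.5 and 21157 RPM in uninjured WT and 29151, 23767 and 14870 RPM in uninjured KO muscle. The uninjured KO libraries lay on both sides of the WT ones, and the difference of -0.06 (SE 0.35, adjusted p = 0.961, limma) turned to 0.20 with upper quartile scaling and 0.18 with TMM. In injured muscle Mylpf was at 26964, 25609 and 22379 RPM in WT and 18171, 17464 and 17476 RPM in KO. All 3 injured KO libraries were below all 3 WT libraries, with a difference of -0.49 (SE 0.27, adjusted p = 0.576, limma).

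Myl1 (chr1:66924295-66947932), the fast essential light chain, was at 21147, 19074 and 20774 RPM in uninjured WT and 18599, 16033 and 14646 RPM in uninjured KO muscle. The injured libraries stood at 20048, 21960 and 23542 RPM in WT and 14550.5, 16977 and 16097 RPM in KO. Every KO library was below every WT library of the same state. The difference was -0.31 (SE 0.29, adjusted p = 0.672, limma) in uninjured and -0.46 (SE 0.27, adjusted p = 0.597, limma) in injured muscle, of which the first is to be set against the median of -0.18 over all genes. The uninjured difference shrank to -0.053 with upper quartile scaling, -0.075 with TMM, -0.074 with DESeq2 and -0.067 in the authors' deposited table, turned to KO minus WT.

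Myl3, the slow essential light chain, was at 268, 273 and 255 RPM in uninjured WT and at 442, 142 and 366 RPM in uninjured KO muscle. The KO libraries again lay on both sides of the WT ones. The difference of 0.10 (SE 0.40, adjusted p = 0.942, limma) turned to -0.06 when reads of mitochondrial genes were left out. In injured muscle Myl3 was at 132, 56.1 and 269 RPM in WT and 613, 159 and 385 RPM in KO, with a difference of 1.40 (SE 0.67, adjusted p = 0.540, limma) and overlapping groups. That value was 0.83 without WT replicate 2, 0.97 without KO replicate 1, and 1.95 without WT replicate 3.

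Myl4 (ENSMUSG00000061086.12, chr11:104546017-104587215), the essential chain of atrial and embryonic muscle, was low in all libraries. It was at 10.7, 6.38 and 10.8 RPM in uninjured WT and 24.8, 22.3 and 18.5 RPM in uninjured KO muscle. After injury Myl4 was at 7.05, 14.8 and 7.62 RPM in WT and 17.6, 16.9 and 22.2 RPM in KO. Every KO library was above every WT library, of either state. The smallest value, in uninjured WT replicate 2, rested on 12 reads. The difference was 1.17 (SE 0.33, adjusted p = 0.173, limma) in uninjured and 0.94 (SE 0.29, adjusted p = 0.357, limma) in injured muscle. In uninjured muscle DESeq2 on whole reads gave adjusted p = 0.00741 and the authors' deposited table q = 0.0326, within a range of 0.00741 to 0.613 over all alternatives.

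Myl6b, an essential chain of slow and non-muscle myosins, was at 3.98 to 13.3 RPM over the 12 libraries. Its differences were 0.43 (SE 0.42, adjusted p = 0.687, limma) and 0.16 (SE 0.39, adjusted p = 0.918, limma), with overlapping groups. Mylk2 (chr2:152911281-152923065), the kinase that phosphorylates the regulatory light chain in skeletal muscle, was at 979, 1202 and 889 RPM in uninjured WT and 1164, 1331 and 1531 RPM in uninjured KO muscle. After injury the kinase was at 1054, 1028 and 1120.4 RPM in WT and 1124, 1541 and 1348 RPM in KO. The injured groups did not overlap, although KO replicate 1 lay next to WT replicate 3, and the differences were 0.39 (SE 0.25, adjusted p = 0.517, limma) and 0.31 (SE 0.20, adjusted p = 0.631, limma).

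**Figure D3:**
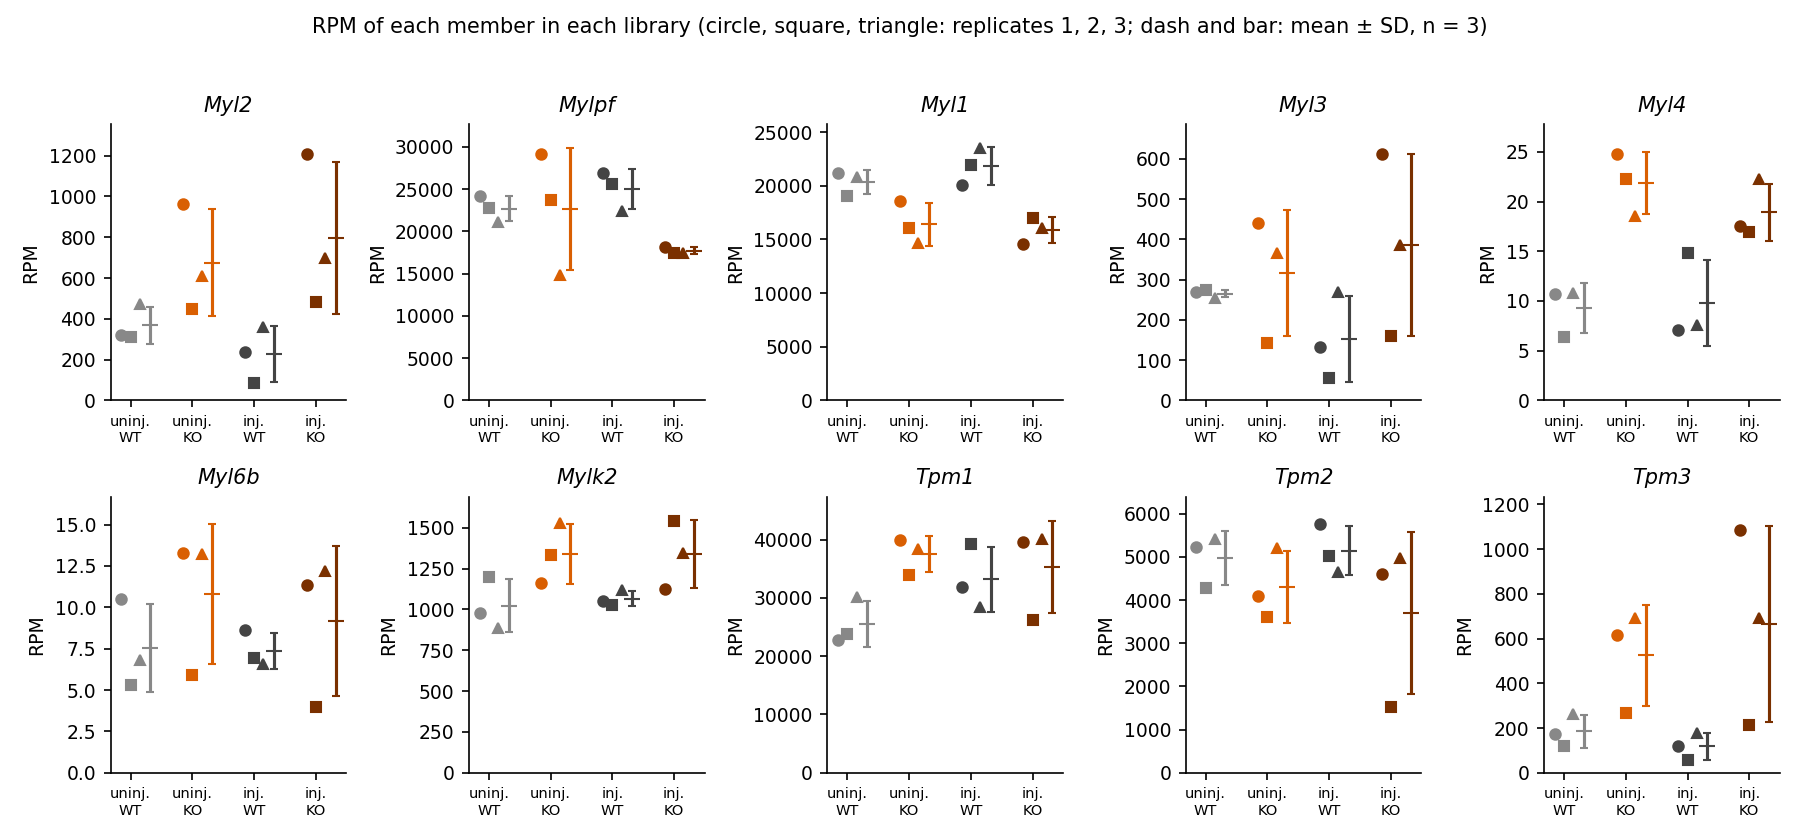
Level of each of the 10 genes in RPM (vertical axis, from 0, its own scale in each panel) in each library, with replicates 1, 2 and 3 as circle, square and triangle and the mean ± SD (n = 3) as a dash with a bar. Myl4 and Tpm3 are higher in all KO than in all WT libraries of the same state, and Myl1 is lower.

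Of the tropomyosins, Tpm3 (ENSMUSG00000027940.18), the slow form, had the largest difference of the 10 genes in both states. It was at 175, 119 and 264 RPM in uninjured WT and 617, 269 and 690.0 RPM in uninjured KO muscle. In injured muscle it was at 121, 54.96 and 177 RPM in WT and 1087, 214 and 693 RPM in KO. The groups did not overlap in either state, although uninjured KO replicate 2 and WT replicate 3 were close, and the KO libraries spread widely. The difference was 1.46 (SE 0.42, adjusted p = 0.180, limma) in uninjured and 2.35 (SE 0.66, adjusted p = 0.313, limma) in injured muscle, or a ratio of means of 2.83 and 5.65. In uninjured muscle limma called it with upper quartile scaling (1.72, adjusted p = 0.0302, 1.25% of all genes called) and with TMM (1.69, adjusted p = 0.0411, 0.859% of all genes called), and over all alternatives the adjusted p ran from 3.57e-05 to 0.653. In injured muscle the difference was 1.85 (adjusted p = 0.894, limma) without KO replicate 1 and 1.89 (adjusted p = 0.684, limma) without WT replicate 2. Without KO replicate 2 it was 3.03 (adjusted p = 0.00985, limma), where 19% of all genes passed, and the range over all alternatives was 0.00318 to 0.909. The authors' deposited table gave q = 0.000278 and 0.00589.

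Tpm1 (chr9:67022590-67049672), the main fast form, was at 22858, 23783 and 30096 RPM in uninjured WT and 40005.5, 34016.5 and 38392 RPM in uninjured KO muscle. All 3 uninjured KO libraries were above all 3 WT libraries, with a difference of 0.56 (SE 0.31, adjusted p = 0.455, limma). In injured muscle it was at 31914.5, 39287 and 28413 RPM in WT and 39671, 26218 and 40087 RPM in KO, where KO replicate 2 was the lowest of the 6 libraries and the difference was 0.08 (SE 0.34, adjusted p = 0.962, limma). Tpm2, the beta form found in both fibre types, was at 5242, 4273 and 5413 RPM in uninjured WT and 4089, 3601 and 5212 RPM in uninjured KO muscle. The groups overlapped, and the difference of -0.22 (SE 0.28, adjusted p = 0.767, limma) turned to 0.04 with upper quartile scaling and 0.02 with TMM. In injured muscle Tpm2 was at 5769, 5028 and 4652 RPM in WT and 4604, 1535 and 4965 RPM in KO. The difference of -0.65 (SE 0.47, adjusted p = 0.671, limma) rests on injured KO replicate 2, and was -0.10 without it. Reads of the muscle and non-muscle transcripts of a tropomyosin gene are counted together in these values.

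Within each pair or trio, the reads on the slow form can be set against those on its counterparts, which removes the scaling between libraries. The share depends on transcript length, so it describes differences between libraries and not protein composition. Myl2 made up 1.61% ± 0.49 (SD, n = 3) of the reads on Myl2 and Mylpf in uninjured WT and 3.003% ± 1.061 in uninjured KO muscle, and 0.925% ± 0.627 and 4.25% ± 1.82 in injured WT and KO muscle. The injured groups did not overlap, with 0.331 to 1.58% in WT and 2.68 to 6.24% in KO. Tpm3 made up 0.592% ± 0.160 of the tropomyosin reads in uninjured WT, 1.22% ± 0.45 in uninjured KO, 0.325% ± 0.204 in injured WT and 1.56% ± 0.82 in injured KO muscle. For Tpm3 too, the ranges of the injured groups did not overlap and those of the uninjured groups did, by a small margin (0.709 to 1.56% in KO and up to 0.738% in WT). Myl3 made up 1.29% ± 0.10 of the reads on Myl1 and Myl3 in uninjured WT, 1.88% ± 0.87 in uninjured KO, 0.679% ± 0.438 in injured WT and 2.44% ± 1.56 in injured KO muscle, with overlap in both states. Tpm1 held 80.8 to 93.7% of the tropomyosin reads in every library. The widest 95% Wilson interval of a single library's share, counting error only, was ± 0.108 percentage points for Myl2, ± 0.121 for Myl3 and ± 0.0553 for Tpm3, narrower than the SD between libraries for all but the uninjured WT share of Myl3.

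**Figure D4:**
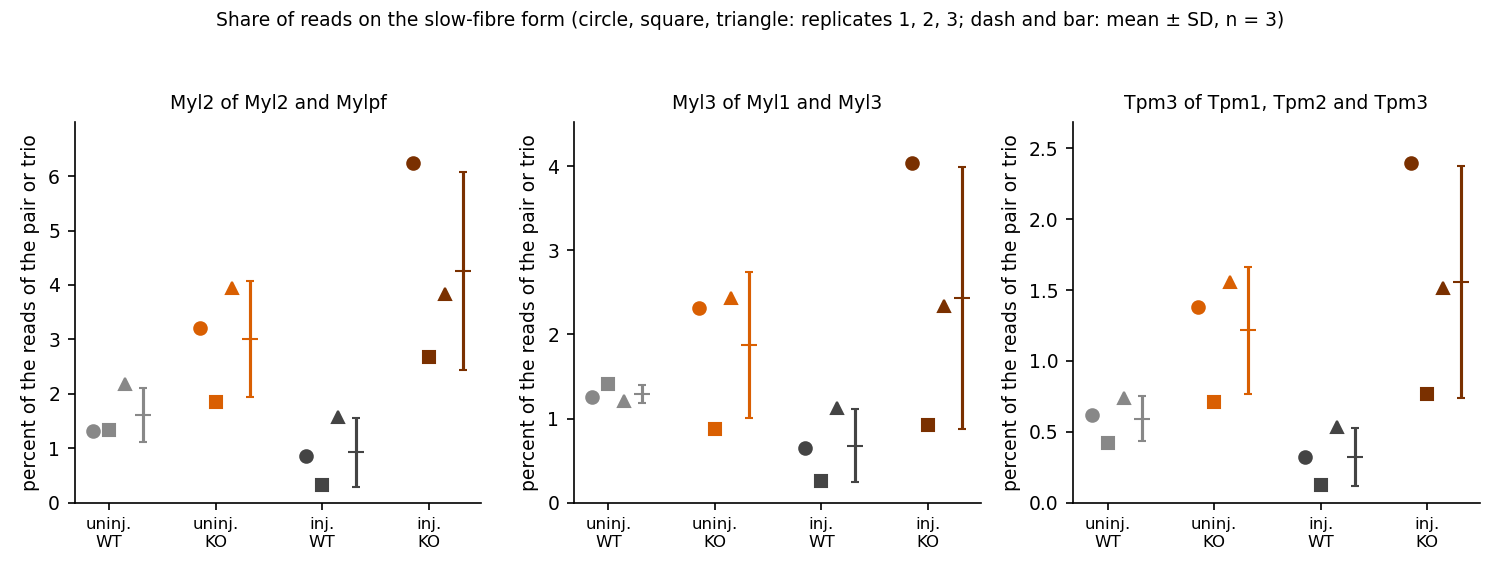
Share of reads (percent, from 0) on the slow form Myl2, Myl3 or Tpm3 within its pair or trio, for each library, with the mean ± SD (n = 3) as a dash with a bar. For Myl2 and Tpm3 all 3 injured KO libraries lie above all 3 injured WT libraries.

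The next comparison was injury within each genotype. None of the 10 genes passed in WT or in KO muscle or in the genotype by injury interaction (limma on all 12 libraries), adjusted or unadjusted, and neither did any gene pass the adjusted threshold, 0% of 13337 in each. DESeq2 and edgeR on whole reads called no member there either. The unadjusted threshold was passed by 1.29% of all genes in WT, 3.51% in KO and 1.56% in the interaction. In WT animals Myl2 was lower in the injured library in 3 of 3, by -0.45, -1.85 and -0.39 on the log2(RPM + 1) scale, and in KO animals it was higher in 3 of 3, by 0.33, 0.09 and 0.19. The mean difference was -0.90 (SE 0.48, adjusted p = 1, limma) in WT and 0.20 (SE 0.48, adjusted p = 0.878, limma) in KO, and the latter turned to -0.17 with upper quartile scaling and -0.07 with TMM. The limma fits given here for injury and the interaction did not pair the libraries by animal. Their SEs therefore include the spread between animals. The interaction was 1.101 (SE 0.68, unadjusted p = 0.132, limma).

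Tpm3 was also lower in the injured library of all 3 WT animals, by -0.53, -1.096 and -0.58, and the KO animals were mixed at 0.82, -0.33 and 0.01. Its mean difference was -0.73 (SE 0.59, adjusted p = 1, limma) in WT and 0.16 (SE 0.59, adjusted p = 0.923, limma) in KO, which turned to -0.21 with upper quartile scaling and -0.11 with TMM. Myl3 differed by -1.02, -2.26 and 0.08 in the WT animals and 0.47, 0.16 and 0.07 in the KO animals. Its mean difference was -1.07 (SE 0.58, adjusted p = 1, limma) in WT and 0.24 (SE 0.58, adjusted p = 0.883, limma) in KO, which turned to -0.14 with upper quartile scaling and -0.04 with TMM. The interactions of Myl3 and Tpm3 were 1.30 (SE 0.82, unadjusted p = 0.137, limma) and 0.90 (SE 0.83, unadjusted p = 0.300, limma). In all 3 genes WT replicate 2 had the largest step down, and without its injured library the WT differences were -0.31 for Myl2, -0.49 for Myl3 and -0.27 for Tpm3. The order of the group means was the same for these 3 slow genes, lowest in injured WT, then uninjured WT, uninjured KO and injured KO, and of the neighbours in that order only uninjured WT and uninjured KO for Tpm3 had ranges that did not overlap.

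**Figure D5:**
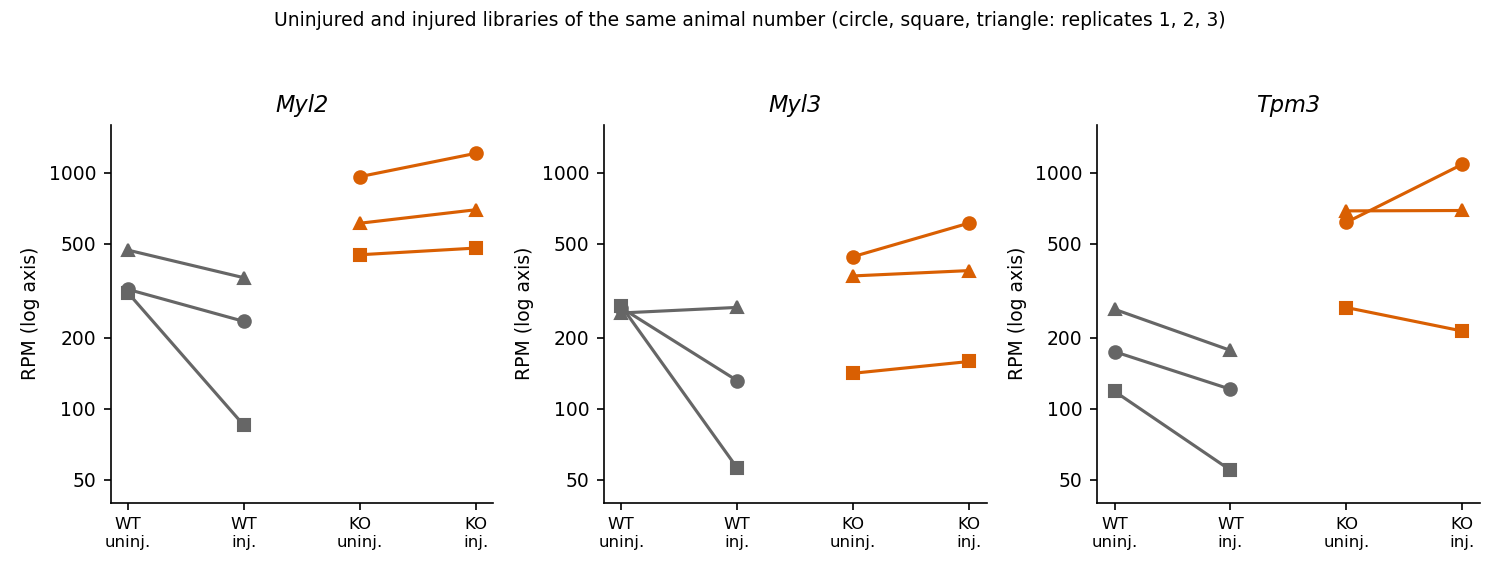
RPM (log axis) of Myl2, Myl3 and Tpm3 in the uninjured and the injured library of each animal number, joined by a line, for 3 WT (grey) and 3 KO (orange) animals. The Myl2 lines slope down in all WT and up in all KO animals.

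Apart from the groups, the slow members moved together from library to library. After the group mean was taken off log2(RPM + 1), Pearson's r over the 12 libraries was 0.91 for Myl2 and Myl3, 0.90 for Myl3 and Tpm3, and 0.86 for Myl2 and Tpm3, values that share the libraries and their scaling. High values were not confined to the slow forms. Myl6b and Tpm2 had r = 0.85, and both were lowest in injured KO replicate 2. Tpm1 and Tpm2 had r = 0.76, and Tpm3 had r = 0.75 with Tpm2 and 0.74 with Myl6b, but -0.48 with Mylk2. Without removing group means, the genes with the pattern most like Myl2 over the 12 libraries, among 7142 genes with a mean of at least 10 RPM, were Tnnt1 (r = 0.98) and Tnnc1 (r = 0.97), the slow troponins T and C, and Aoc3 (r = 0.97) and Adipoq (r = 0.95), which are made in fat cells. Tpm3 had r = 0.94 with Myl2. For Myl4 they were A930005H10Rik (r = 0.94), Phf7 (r = 0.92), Synpo2l (r = 0.92) and Spr (r = 0.90), and for Mylpf they were the proteasome subunit Psmb6 (r = 0.91) and, for mitochondrial proteins, Atp5j2 (r = 0.91), Romo1 (r = 0.89) and Uqcr10 (r = 0.88).

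Markers of other cell types moved with some of these genes. The summed level of 6 adipocyte markers was 1199 to 2008 RPM in uninjured WT, 1701 to 3187 in uninjured KO, 383 to 1314 in injured WT and 1377 to 2992 RPM in injured KO libraries. KO replicate 1 was the highest of each state and injured WT replicate 2 the lowest of all, as they were for Myl2. The order of the other KO libraries differed. In both states replicate 3 had the lowest adipocyte sum of the KO libraries, whereas Myl2 was lowest in replicate 2. The part of fat cells or of the muscle sampled in these results was not tested. The summed level of 6 smooth muscle markers was 2604 to 3050 RPM in uninjured WT and 5457 to 5505 RPM in uninjured KO libraries. Most of it was Des, which skeletal fibres also make, and the other 5 summed to 137 to 223 RPM and 225 to 340.4 RPM. In injured muscle the 6 summed to 2272 to 3520 RPM in WT and 2638 to 5416 RPM in KO. The 5 without Des summed to 148 to 192 RPM and 175 to 287 RPM there, with overlapping groups. For 6 heart markers the sums were 4.51 to 7.27 RPM in uninjured WT and 179 to 302 RPM in uninjured KO libraries, nearly all of it Myh6 (176 to 296 RPM in KO), and 4.53 to 6.43 RPM against 81.1 to 272 RPM in injured muscle, while the atrial light chain Myl7 had 0 reads in all 12 libraries. Myh6 passed the adjusted threshold in both states. It differed by 6.64 (SE 0.36, adjusted p = 0.000206, limma) in uninjured and 6.40 (SE 0.47, adjusted p = 0.00697, limma) in injured muscle. The summed level of 6 macrophage markers was lower in KO, as Myl1 was, with 39.6 to 70.7 RPM against 70.7 to 135 RPM in uninjured muscle, where the nearest libraries all but touched, and 76.9 to 85.7 RPM against 91.6 to 117 RPM in injured muscle. The part of macrophages in the result for Myl1 was not tested. In bulk muscle, fewer cells of a type and less RNA per cell cannot be told apart.

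Genes around the members were read from fixed lists, and no gene of the 5 lists passed the adjusted threshold in either state (limma), counts to be read beside the shares of all genes above. At an unadjusted p under 0.05 (limma), these were 14.2% in uninjured and 10.3% in injured muscle, not split into higher and lower. Of 10 slow fibre genes, 4 were higher in KO at an unadjusted p under 0.05 in uninjured and 6 in injured muscle, none lower, and the list's median difference was 0.52 and 1.78. Myh7, the slow myosin heavy chain, differed by 1.88 (SE 0.36, adjusted p = 0.0694, limma) and 2.76 (SE 0.61, adjusted p = 0.213, limma). Tnni1, slow troponin I, differed by 1.34 (SE 0.43, adjusted p = 0.211, limma) and 2.40 (SE 0.76, adjusted p = 0.362, limma), with overlapping groups in both states. Of 12 fast fibre genes, 2 were higher in uninjured and 0 in injured muscle, with medians of 0.50 and 0.00. The 2 were Actn3 (0.98) and Mybpc2 (0.97), named here after their values were seen. Counted by library, 5 of the 12 fast and 3 of the 10 slow genes were higher throughout in uninjured KO, against 6.2% of all genes. In injured muscle 1 fast and 5 slow genes were higher throughout, against 8.29%, and 1 fast gene was lower, against 8.63%. Myh2, the IIa heavy chain, differed by 1.38 and 0.33, and the gene listed as Tnnc2, fast troponin C, by 1.17 and 0.02, with overlapping groups for both genes. The level of Tnnc2 was low, at 3.60 to 28.5 RPM over the 12 libraries.

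Of 18 thin filament partners of tropomyosin, 4 were higher and 1 lower in uninjured and 4 higher in injured muscle at the unadjusted threshold. Of all genes, 14.2% passed that threshold in uninjured and 10.3% in injured muscle, in either direction. Lmod1, an actin nucleator of smooth muscle, differed by 2.80 and 2.09. Tpm4, the fourth tropomyosin gene, a non-muscle form named here after its values were seen, was at 73.0, 51.6 and 79.1 RPM in uninjured WT and 35.0, 23.1 and 33.4 RPM in uninjured KO libraries. The difference was -1.13 (SE 0.30, adjusted p = 0.153, limma) in uninjured and -0.25 (SE 0.40, adjusted p = 0.870, limma) in injured muscle, where the groups overlapped and KO replicate 2 was the highest of the 6 libraries at 92.6 RPM. Of the 10 tested among 12 other light chains and their enzymes, 0 were higher and 1 lower in uninjured and 2 higher in injured muscle. The lower one was Ppp1r12a, a targeting subunit of myosin phosphatase, at -1.75 (SE 0.39, adjusted p = 0.104, limma), and Myl9, a smooth muscle regulatory chain, differed by 0.56 and 0.73. Of 6 developmental fibre genes 1 was higher in each state, with list medians of 0.25 and -0.02. It was the perinatal heavy chain Myh8 (1.05) in uninjured and the embryonic one Myh3 (1.09) in injured muscle. Beside the shares of all genes, 1 gene in a list of 6 or 10 does not set that list apart. Myh8 differed by 0.08 in injured and Myh3 by 0.45 in uninjured muscle, with overlapping groups. Myh3 was low, at 0.689 to 1.58 RPM in injured WT and 2.21 to 5.30 RPM in injured KO libraries.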

How the data were processed

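The authors deposited 1 table of uninjured and 1 of injured libraries, with RPM for each gene and library, and with the authors' own log2 fold change (WT over KO, by its sign), p-value and q-value for each gene. HISAT2 2.1.0, SAMtools, featureCounts, DESeq2, Bowtie 1.1.0 and MACS2 2.1.0.20140616, and the builds mm10 and GRCm38.p5, are named in the submitters' processing notes, without their settings, so the use of strand and the handling of reads shared by paralogs are not given in the sources used here. RNA was made into libraries with the TruSeq RNA v2 kit, per the labels' protocols. The deposited peak list gives, per the file headers, each peak's position, its signal (pileup), its fold enrichment as a ratio, and −log10 of the p-value and of the q-value.

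Whole reads were recovered from the deposited RPM values, and 100% of the values checked came out whole within 0.1 read in each library. The check covered the 13105 to 17834 nonzero values of lower read number in a library. Highly expressed genes, among them Myl1, Mylpf, Tpm1 and Tpm2, were outside it. A floor of 3 reads corresponds to 0.0607 to 1.60 RPM. Each test was limma 3.58.1 (R 4.3.3, eBayes with a trend) on log2(RPM + 1), over genes that reached 1 RPM in 3 or more fitted libraries, two-sided, with Benjamini-Hochberg adjustment over all genes and a threshold of 0.05. KO against WT was fitted on the 6 libraries of a state, and injury and the interaction on all 12, without pairing by animal in the main fit. Differences on this scale understate those of low genes such as Myl4 and Myl6b. The fitting code was tested on simulated data.

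The alternatives were a pseudocount of 0.1, other filters, upper quartile and TMM scaling, RPM without mitochondrial genes, DESeq2 1.42.0 and edgeR 4.0.16 on the recovered reads, a replicate block, all 12 libraries in 1 fit, the authors' q-values, and each library left out in turn. For injury, the pairing comes from the number in the descriptions, read as the animal, and the correlation of deviations within a pair was 0.28, -0.23 and 0.02 in WT and 0.02, 0.50 and 0.63 in KO. The genes, lists and tests were chosen with earlier results of these data known. All 10 members are named. Of each list, genes past the adjusted threshold are named and otherwise the 2 with the largest difference in uninjured muscle, and for Myl2, Myl4 and Mylpf the 4 genes most correlated.

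Starts and promoter sequences are those of RefSeq on GRCm38.p6, which shares the chromosome coordinates of mm10. All but Mylk2 of the 10 genes had an entry. As a check of the build, 398 of 32851 starts had a summit within 250 bases, against 155 and 145 when starts were shifted by 20000 bases either way.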

Additional observations from a re-analysis of the deposited data

Results flagged for a closer look

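In RPM, Myl2 was lower in the injured library of every WT animal and higher in that of every KO animal. The KO direction depended on the scaling: the mean KO difference of 0.20 was -0.17 with upper quartile scaling, -0.071 with TMM, -0.047 with DESeq2 and -0.037 with edgeR. The difference between the genotypes, KO minus WT, was 1.101 on the log2(RPM + 1) scale. The interaction test, which did not pair the libraries by animal, did not pass (unadjusted p = 0.132, adjusted p = 0.9999, limma). Over the alternatives it ran from 0.51 to 1.55, and without injured KO replicate 2 it was 1.41. The KO steps were small (0.09 to 0.33), and the median difference of all genes in KO was 0.29.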

How the results depend on the processing

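No member passed in KO against WT with the chosen settings, and the number that passed depended on the method. In uninjured muscle it was 1 with upper quartile scaling (1.25% of all genes called), 1 with TMM (0.859%), 3 with DESeq2 (5.32%) and 2 by the authors' q-values (0.668%), and 2 with the replicate block, by number (6.04%). In injured muscle it was 2 with DESeq2 (3.38%), 1 by the authors' q-values (0.454%) and 0 with the replicate block, and with each library left out in turn it ranged from 0 to 2, the 2 being without injured KO replicate 2, where 2343 of 12312 genes (19%) passed. The numbers join different animals of WT and KO (correlation of deviations 0.04, 0.26 and 0.37 in uninjured and -0.45, -0.60 and -0.30 in injured muscle). For injury and the interaction no alternative called a member, and the animal block changed no call. Over all genes, 35 passed in uninjured muscle, 45.7% of them higher in KO, and from 1 (no filter on low values) to 752 (replicate block) under the alternatives, with 63.5% higher under upper quartile scaling, 57.0% under TMM and 15.6% without mitochondrial genes.

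Of 340 member values for KO against WT, 310 kept their direction and their side of the threshold, 14 passed it and 16 turned. The other filters, the replicate block and the fit of all 12 libraries leave the difference itself unchanged, so values there could not turn. Since no member passed in the main fit, none could lose a call. In uninjured muscle Mylpf was 0.20 with upper quartile scaling, 0.18 with TMM, 0.25 with DESeq2, 0.24 with edgeR and 0.25 in the authors' table, and -0.27 to 0.22 with libraries left out. Tpm2 was 0.041 with upper quartile scaling and 0.019 with TMM. Myl3 was -0.058 without mitochondrial genes and -0.22 to 0.60 with libraries left out. In injured muscle, with libraries left out, Myl6b ranged from -0.085 to 0.62 and Tpm1 from -0.030 to 0.28. For injury in KO, Myl2 was -0.17 with upper quartile scaling, -0.071 with TMM, -0.047 with DESeq2, -0.037 with edgeR and -0.15 to 0.52 with libraries left out. Myl3 was -0.14 with upper quartile scaling, -0.037 with TMM and -0.26 to 0.77 with libraries left out, and Tpm3 was -0.21, -0.11 and -0.33 to 0.84. The cause was not tested. Of 9 members with a start, 6 had a peak within 5 kb, 2 with a fold of at least 10 only, and 3 within 1 kb. Depth limits Myl4 and Myl6b, with 12 and 10 reads in uninjured WT replicate 2.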
